A study of Mus musculus with 11 samples.

Results

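The mitochondrial ribosomal protein genes encode the protein subunits of the mitoribosome, the ribosome inside mitochondria. They were taken by symbol, as the genes named Mrpl (large subunit) or Mrps (small subunit) with a number and at most 1 further letter. Of the 36666 genes listed, 76 met this rule, 47 large and 29 small. These proteins are encoded in the nucleus, made on cytosolic ribosomes and imported. In the mitochondrion they assemble on ribosomal RNAs that mtDNA itself encodes, and the finished particle translates the mRNAs of mtDNA into core subunits of the respiratory chain. Some subunits descend from those of bacterial ribosomes, while others occur in mitochondria only.

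Poly(A)+ RNA came from the cerebrum of 11 male mice, all 1 year old. The 7 Polg mutators were homozygous for the D257A allele, which impairs proofreading by the mitochondrial DNA polymerase, so that mtDNA gathers mutations. The 4 controls were littermates, 3 of them WT/WT (mice 205, 239 and 246) and 1 heterozygous, WT/D257A (mouse 237). The allele is carried in the germline and is thus in all cell types of the tissue. Gene counts summed to 121182250, 43693704, 62270188 and 28249345 in control mice 205, 237, 239 and 246, and to between 37821243 and 91219204, with a median of 55741011, in the mutators. Levels are given as CPM, the counts scaled by library total and TMM factor. Tests set the 7 mutators against the 4 controls in edgeR, with p-values adjusted over all genes by the Benjamini-Hochberg method, and a gene was called at an adjusted p under 0.05. Log2 fold changes are mutator over control. Neuronal markers, led by Snap25, summed to between 5179.6 and 5668.4 CPM per mouse, and markers of astrocytes, oligodendrocytes, microglia, vessels, blood and choroid plexus were present too. In such bulk tissue, fewer cells of a type and less RNA per cell cannot be told apart.

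Mutators and controls had nearly the same levels of mitoribosomal protein mRNAs, and no member was called by edgeR. The 76 members summed to 1714.2, 1736.3, 1753.8 and 1833.8 CPM in controls 205, 237, 239 and 246, and to 1657.8, 1709.5 and 1796.7 CPM as lowest, median and highest of the mutators. The groups overlapped, with 4 of the 7 mutators under the lowest control and 0 above the highest. Scaled by library total alone, 6 mutators were under the lowest control, mutator 217 was above the highest, and the ratio of the means was 0.983. With the TMM factor the means were 1759.5 ± 52.1 CPM in controls (SD, n = 4) and 1715.5 ± 43.5 CPM in mutators (SD, n = 7), a ratio of 0.975.

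All 76 members passed the filter on low counts. With edgeR 0 of them were called, against 1.24% of the 17983 genes tested, and 6 had an unadjusted p under 0.05, which is 7.89% of the members against 15.8% of all genes. All 6 were lower in the mutators, a direction in which 8.58% of all genes had such a p. DESeq2 called 1 member, Mrps24, and 3.94% of the 15770 genes to which it gave an adjusted p. For 0 members did the 4 control and 7 mutator values lie fully apart, against 2.62% of all genes. Each of these shares of the members was at or below that of all genes.

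**Figure D1:**
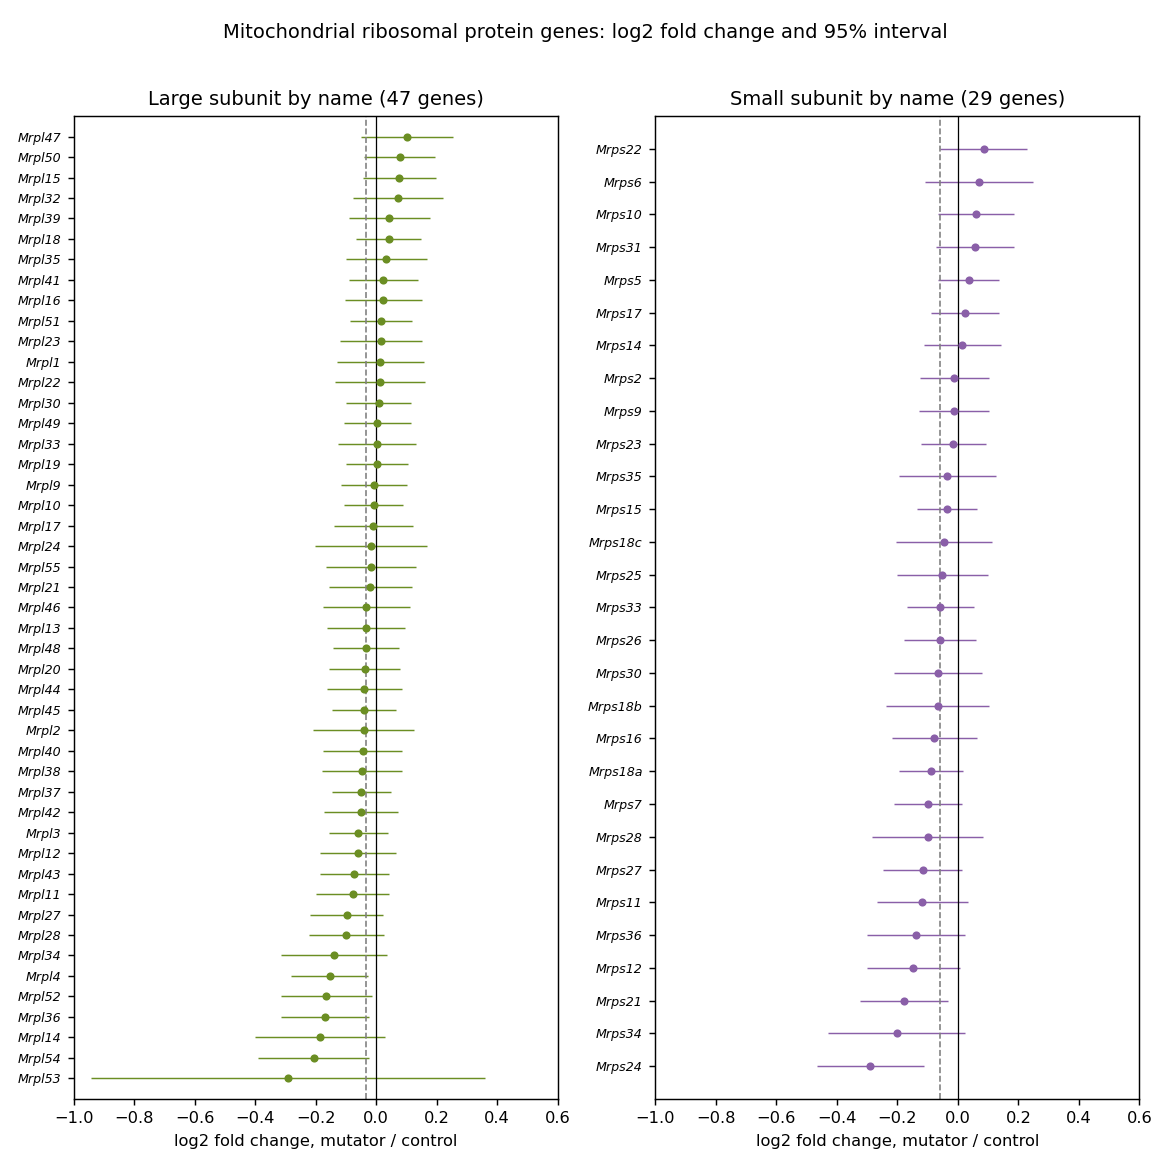
Log2 fold change (mutator over control, horizontal axis) of each of the 47 large and 29 small subunit members by name, with the approximate 95% interval from the edgeR fit of 7 against 4 mice. The dashed line is the median of each class, -0.033 and -0.058, and the interval of Mrpl53, the gene with the fewest counts, is the widest.

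Most members were measured closely enough to bound a difference. Their median standard error was 0.062 on the log2 scale, against 0.078 over all genes tested. For 70 of the 76 the approximate 95% interval lay within 0.32 of 0 on that scale, which was so for 10553 of the 17983 genes. The 6 members whose interval reached beyond 0.32 from 0 were Mrps24, Mrps21, Mrpl54, Mrps34, Mrpl14 and Mrpl53. The log2 fold changes were small, with 60 members (78.9%) within 0.1 of 0, against 54.7% of all genes.

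More members were lower than higher in both subunits. Of the 47 large subunit members 30 were lower and 17 higher (median log2 fold change -0.033), and of the 29 small subunit members 22 were lower and 7 higher (median -0.058). The classes follow the names, so the small class and its sums include Mrps18a, Mrps30 and Mrps36, whose proteins sit elsewhere. All 3 were lower. Over all genes tested the median was 0.0014, with 49.6% lower. Both medians kept their sign under each alternative scaling, filter and test, and without control mouse 246 they were -0.013 and -0.035. Members related to bacterial ribosomal proteins had a median of -0.013 in the large subunit (n = 30) and -0.042 in the small one (n = 16), and members found in mitochondria only had -0.040 (n = 17) and -0.055 (n = 10). Mrps18a, Mrps30 and Mrps36 were left out of this split. The ratio of summed CPM of the large to the small class was 1.757, 1.780, 1.755 and 1.773 in controls 205, 237, 239 and 246, and 1.770, 1.791 and 1.801 as lowest, median and highest of the mutators. In 5 of the 7 mutators it was above that of each control, and the groups overlapped.

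The small subunit binds the mRNA and holds the decoding site. Its member with the lowest p was Mrps24, the counterpart of a bacterial protein at the mRNA entrance, at chr11:5603986-5615683 of mm9. Mrps24 had 13.2, 15.3, 15.8 and 18.3 CPM in controls 205, 237, 239 and 246, and 10.6, 12.6 and 13.99 CPM as lowest, median and highest of the mutators. This is a log2 fold change of -0.29 with a standard error of 0.085 and an adjusted p by edgeR of 0.0925. The controls were spread, with mouse 246 highest and mouse 205 lowest, and 5 of the 7 mutators lay under mouse 205. DESeq2 gave Mrps24 an adjusted p of 0.0416, and edgeR gave 0.0425 with log2 library total as a covariate and 0.0284 without control 205, fits in which 622, 311 and 412 genes were called in all, against 223 by edgeR with all mice. Over all alternatives this adjusted p ran from 0.0284 to 0.335, the last without control 246, and the log2 fold change from -0.37 to -0.21.

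Mrps21, also of bacterial ancestry, had 21.6, 21.7, 22.8 and 25.3 CPM in the controls, in the same order of mice, and 17.6, 19.9 and 23.2 CPM as lowest, median and highest of the mutators. Its log2 fold change was -0.18 with a standard error of 0.069 and an adjusted p by edgeR of 0.206. Of the mutators, 6 lay under the lowest control, and mouse 217 lay within the control range. Mrps12, whose bacterial relative sits at the decoding site, had 20.3, 23.0, 22.9 and 25.2 CPM in the controls and a mutator median of 20.7 CPM, for a log2 fold change of -0.15 (95% interval -0.30 to 0.0052). Mrps7 had 29.5, 30.1, 31.1 and 31.2 CPM in the controls and a mutator median of 28.8 CPM, for a log2 fold change of -0.099 (95% interval -0.21 to 0.013). For Mrps12 and for Mrps7 each of the 7 mutators was under the control median, and some were inside the control range. Among the mitochondrial additions to the subunit, Mrps34 had a log2 fold change of -0.20 (95% interval -0.43 to 0.023) and Mrps27, a pentatricopeptide repeat protein, one of -0.12 (95% interval -0.25 to 0.015), and of -0.076 without control 246. Both intervals include 0.

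The large subunit joins the amino acids and holds the exit tunnel of the new protein. Mrpl4, whose relatives line that tunnel, lies at chr9:20807181-20813279 of mm9. Its level was 31.4, 35.6, 35.7 and 35.9 CPM in controls 205, 237, 239 and 246, and 27.4, 30.8 and 34.6 CPM as lowest, median and highest of the mutators. The log2 fold change was -0.15 with a standard error of 0.061 and an adjusted p by edgeR of 0.21. Control 205 stood apart below the other controls, 4 of the 7 mutators were lower still, and no mutator reached the other 3 controls.

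Mrpl36, a small protein with a bacterial relative, had 13.99, 14.4, 15.8 and 17.2 CPM in controls 205, 237, 239 and 246, and 12.9, 13.2 and 14.8 CPM as lowest, median and highest of the mutators. Its log2 fold change was -0.17 with a standard error of 0.069 and an adjusted p by edgeR of 0.233. All 7 mutators were under the control median, and 4 were under the lowest control.

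Mrpl54 and Mrpl52 belong to the proteins that mitochondria added to the subunit. For Mrpl54 the controls had 11.2, 13.5, 12.2 and 11.7 CPM, and the mutators 9.07, 10.5 and 12.1 CPM as lowest, median and highest (log2 fold change -0.21, adjusted p by edgeR 0.249). For Mrpl52 the controls had 11.7, 12.1, 11.5 and 13.9 CPM, and the mutators 10.3, 10.8 and 12.2 CPM (log2 fold change -0.17, adjusted p by edgeR 0.269). In both genes mutator 217 was highest of its group and lay within the control range. Next in order of p were Mrpl14, at the face that meets the small subunit (log2 fold change -0.19, 95% interval -0.40 to 0.028), Mrpl27, near the site where peptide bonds form (-0.098, interval -0.22 to 0.023), Mrpl28 (-0.099, interval -0.22 to 0.025) and Mrpl34 (-0.14, interval -0.31 to 0.036). All 4 intervals include 0. Without control 246 the log2 fold change of Mrpl14 was -0.062 and that of Mrpl52 -0.11. At the other end, picked out after their values were seen, Mrpl47 and Mrps22 had the highest log2 fold changes of their classes, 0.10 (95% interval -0.049 to 0.25) and 0.085 (95% interval -0.060 to 0.23).

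**Figure D2:**
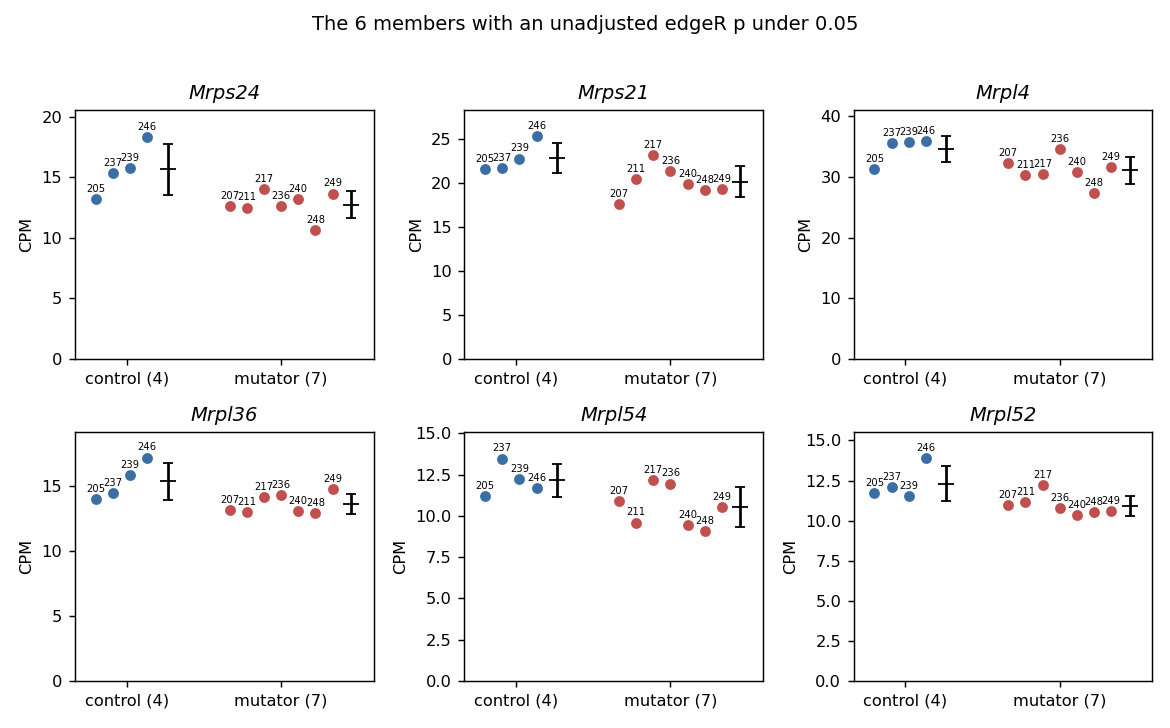
CPM (vertical axis, from 0) of the 6 members with an unadjusted edgeR p under 0.05 in 4 control and 7 mutator mice, each point labelled with its mouse, and the mean ± SD of each group as a black bar. The groups overlap in each panel, and control 246 is the highest control for Mrps24, Mrps21, Mrpl4, Mrpl36 and Mrpl52 but not for Mrpl54.

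Some genes named for the small subunit encode proteins that sit elsewhere. Of the Mrps18 paralogs, Mrps18c takes the place of the bacterial protein, Mrps18b occupies a mitochondrial position in the small subunit, and Mrps18a belongs to the large subunit. Mrps18a had 31.3, 31.1, 30.2 and 30.5 CPM in controls 205, 237, 239 and 246, and 26.9, 29.5 and 30.5 CPM as lowest, median and highest of the mutators (log2 fold change -0.088, 95% interval -0.19 to 0.018). Its controls were close together, and 6 of the 7 mutators were below all of them. Mrps18b and Mrps18c had log2 fold changes of -0.067 and -0.046, with intervals that include 0, and Mrps18b had -0.018 without control 239. Mrps30, a large subunit protein despite its name, had -0.067 (95% interval -0.21 to 0.079). It had -0.015 without control 246 and -0.12 without control 205. Mrps36, now known as a subunit of the α-ketoglutarate dehydrogenase complex, had -0.14 (95% interval -0.30 to 0.024).

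Subunits that join 1 particle did not have equal mRNA levels. Per kb of annotated exon, the mean over all 11 mice ran from 0.51 to 43.0 CPM per kb over the 76 members, with a median of 11.0. The median over the 17188 tested genes with an annotated length was 4.84 CPM per kb, and 64 members were above it. The highest per kb were Mrpl42, Mrpl41 and Mrpl11 in the large class, with 43.0, 40.4 and 32.3 CPM per kb, and Mrps33, Mrps16 and Mrps12 in the small class, with 36.3, 21.9 and 20.6 CPM per kb. None of these 6 was called by edgeR or DESeq2 or had an unadjusted p under 0.05, and their log2 fold changes were -0.051, 0.024 and -0.078 in the large class and -0.058, -0.078 and -0.15 in the small class. Without control 246 the log2 fold change was 0.054 for Mrpl41, -0.035 for Mrps33 and -0.046 for Mrps16. Without control 205 it was 0.0017 for Mrpl41, -0.083 for Mrpl42 and -0.13 for Mrpl11. The lowest per kb were Mrpl53, Mrpl33 and Mrpl13, with 0.51, 2.18 and 2.54 CPM per kb, and Mrps35, Mrps10 and Mrps18b, with 2.33, 2.70 and 3.77 CPM per kb. Exon length here counts each base that any annotated transcript uses, 7473 for Mrpl33 and 7936 for Mrpl13, so a long rare transcript lowers the value per kb. Mrpl53 shares 87.1% of its exon bases with Ccdc142, a gene on the same strand, so its count, and with it the low end of the range, is uncertain. Mrpl53 had between 8 and 36 counts per mouse, and the 95% interval of its log2 fold change, -0.94 to 0.36, was the widest of all members.

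**Figure D3:**
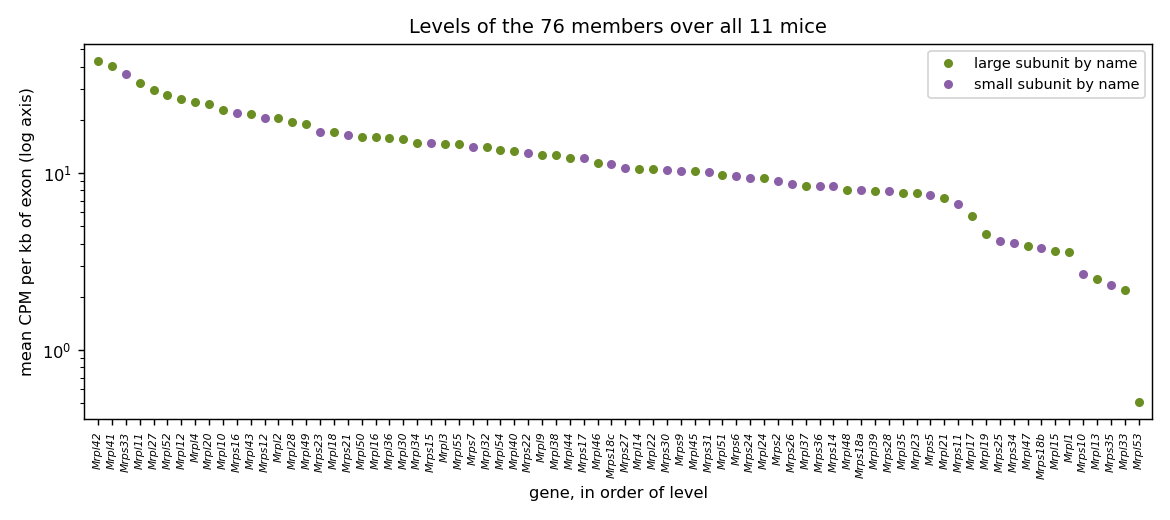
Mean CPM per kb of annotated exon over all 11 mice (vertical log axis) for the 76 members in order of level, coloured by subunit. Large and small subunit members are interleaved between 43.0 for Mrpl42 and 0.51 for Mrpl53.

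Mice of the same group also differed from each other. Each member's log2 CPM was set against its own median over the 11 mice, and the median of these deviations over the members was taken in each mouse. It was 0.00, 0.00, 0.0077 and 0.069 in controls 205, 237, 239 and 246, and -0.055, -0.017 and 0.069 as lowest, median and highest of the mutators. For the small class alone, 6 of the 7 mutators were under the lowest control, against 4 for all members. Control 246 and mutator 217 thus stood about equally high over all members, and mutator 248 stood lowest. Of the 76 members, 58 were above their own median in mouse 246 and 53 in mouse 217, against 16 in mouse 248. Control 246 held the highest value of all mice for 26 of the 76 members and for 12.3% of all genes tested. Control 237 held it for 7 of the 76 members and for 15.1% of all genes. Leaving out control 246 moved the log2 fold changes of 15 of 29 members, those chosen by the rule for named genes, by over 1.5 times. Of these, 14 moved towards or past 0, and 2 to 9 members moved so far without any other mouse. This measure is limited, since a small shift passes 1.5 times where the value is near 0, as for Mrpl33 at 0.0035. Others of the 29 were chosen for a low p in these same data, and all of those were lower in the mutators. Without control 205, 9 members moved by over 1.5 times, 8 of them away from 0. Control 246 was also the shallowest library, and mutator 248 was the deepest mutator library. With log2 library total as a covariate the medians of the log2 fold changes were -0.032 for the large and -0.058 for the small class.

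Cytosolic ribosomal and nuclear respiratory chain genes had the same high and low mice. The 78 tested genes of cytosolic ribosomal proteins had a median deviation of 0.12 in control 246, 0.15 in mutator 217 and -0.077 in mutator 248, and the 81 tested nuclear genes named for respiratory chain subunits had 0.14, 0.095 and -0.11. Both lists thus spanned a wider range over the mice than the mitoribosomal genes did. Other lists had another order of mice. The median deviation in control 246, mutator 217 and mutator 248 was 0.083, -0.033 and -0.0027 for the 17 mitochondrial tRNA synthetases and 0.027, 0.00 and 0.00 for the 15 factors of mitochondrial translation. For the 11 tested mRNAs of mtDNA it was 0.26, 0.077 and 0.00, and lowest in control 239, at -0.30.

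**Figure D4:**
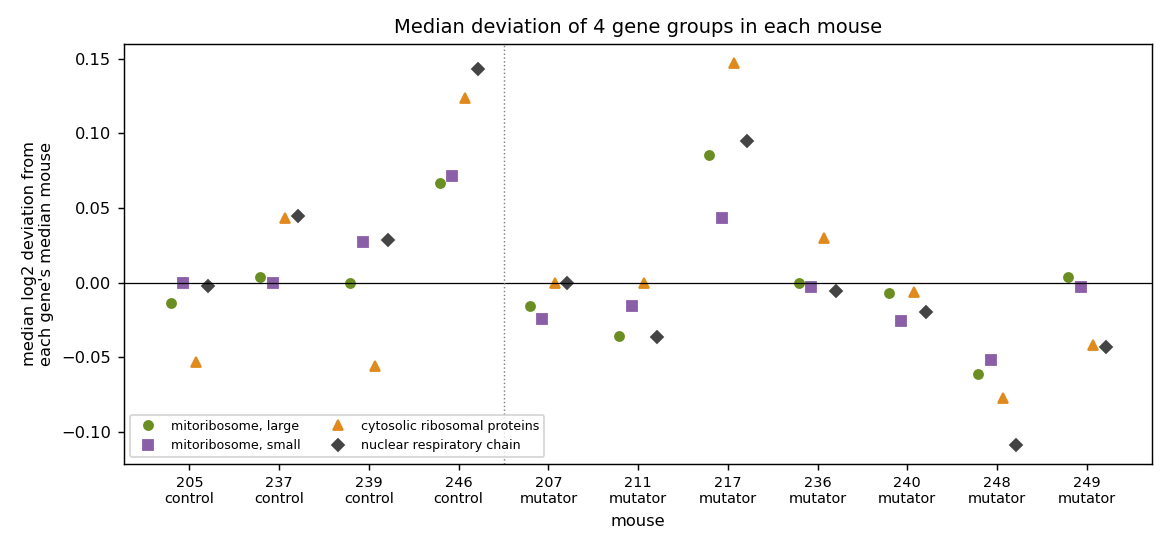
Median deviation, on the log2 scale, from each gene's own median over the 11 mice (vertical axis) in each mouse (horizontal axis, 4 controls left of the dotted line, 7 mutators right), for 47 large and 29 small mitoribosomal, 78 cytosolic ribosomal and 81 nuclear respiratory chain genes. Control 246 and mutator 217 are high and mutator 248 is low for all 4 groups of genes.

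Single members also varied little over the 11 mice. The coefficient of variation had a median of 6.39% over the members, against 9.52% over all genes tested. It was lowest for Mrps15 and Mrpl10, picked out after their values were seen, at 2.65% and 2.71%, and highest for Mrpl53, Mrpl14 and Mrps24, at 34.5%, 15.5% and 14.9%. Mrps24, the member with the lowest p, was thus among the most variable.

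The other components needed to make and run mitoribosomes were compared as lists. Over all genes, edgeR called 1.24% and DESeq2 3.94%, and 15.8% had an unadjusted edgeR p under 0.05. Both ribosomal RNAs of mtDNA form the core of the particle, though poly(A) selection samples them incompletely. The large one, mt-Rnr2, had 3738, 3426, 3323 and 3982 CPM in controls 205, 237, 239 and 246, and 2980.1, 3250.0 and 3779.9 CPM as lowest, median and highest of the mutators (log2 fold change -0.15, adjusted p by edgeR 0.241). The small one, mt-Rnr1, had a log2 fold change of -0.11 (adjusted p by edgeR 0.401). Neither was called by edgeR or DESeq2, 1 had an unadjusted p under 0.05, and for both the mutators overlapped the controls.

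Mitoribosomal proteins that go by other symbols had 0 of 7 genes called by edgeR or DESeq2, 0 with an unadjusted p under 0.05 and a median log2 fold change of -0.025, with Ptcd3 at 0.092 and Mrp63 at -0.087. Factors that assemble the mitoribosome had 0 of 24 called by either tool, 2 with an unadjusted p under 0.05 by edgeR and a median of -0.0032. Those were Gtpbp10, a GTPase of large subunit maturation, at 0.22 (95% interval 0.040 to 0.39), and 1110032A13Rik, the gene of the ribosome binding factor Rbfa, which acts in small subunit maturation, at -0.14 (95% interval -0.28 to -0.0034). The 2 lay in opposite directions. Before gene names were corrected, a gene wrongly listed as Rbfa was the only call of this list.

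Factors of mitochondrial translation had 0 of 15 called by edgeR or DESeq2, 1 with an unadjusted p under 0.05 and a median log2 fold change of 0.0075, with Guf1 at 0.11 and Lrpprc at 0.078. Mitochondrial tRNA synthetases, which load the tRNAs, had 0 of 17 called by either tool, 0 with such a p and a median of -0.028, with Vars2 at -0.13 and Aars2 at -0.12. Regulators of mitochondrial biogenesis had 0 of 12 called by either tool, 3 with such a p by edgeR and a median of 0.045. Of these, Gabpa, the DNA-binding subunit of an ETS-family factor, had a log2 fold change of 0.17 (adjusted p by edgeR 0.203), and Esrra, a nuclear receptor, one of -0.12 (adjusted p by edgeR 0.235). The third, Gabpb1, encodes the partner of Gabpa and was the only gene of the list whose groups lay fully apart, as they did for 2.62% of all genes tested. Gabpb1 had 16.996, 16.164, 16.232 and 16.863 CPM in controls 205, 237, 239 and 246, and 17.4, 18.1 and 18.9 CPM as lowest, median and highest of the mutators (log2 fold change 0.13, adjusted p by edgeR 0.248). The medians of the translation factors, the tRNA synthetases and the biogenesis regulators were each within 0.1 of 0.

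The mRNAs of mtDNA, which the mitoribosome translates, had 0 of 11 tested genes called by edgeR and 2 by DESeq2, which called 3.94% of all genes. At an unadjusted p under 0.05 by edgeR there were 5 (45.5%, against 15.8% of all genes). Of these 5, the mutators had more of 4 and less of 1. Of the 11 genes 9 were higher, and the median log2 fold change was 0.11. Lowest in p were mt-Nd5 at 0.23 and mt-Cytb at -0.19 on the log2 scale. DESeq2 called mt-Nd5 (adjusted p 0.0328) and mt-Co2 (adjusted p 0.0143). The groups lay fully apart for mt-Co2 alone, with 0.48, 0.46, 0.14 and 0.51 CPM in controls 205, 237, 239 and 246, and 0.57, 0.89 and 23.9 CPM as lowest, median and highest of the mutators (log2 fold change 4.199, 95% interval 0.44 to 7.96, adjusted p by edgeR 0.266). Mutators 207 and 240 stood far above the other mutators for this gene, at 23.9 and 21.5 CPM. In each control mt-Co2 was under 1 CPM, while mt-Co1, of the same enzyme, had 17504.6 to 21491.6 CPM, and 2 of the 13 mRNAs listed did not pass the filter. These counts are thus uncertain as a level of mt-Co2, and so are its log2 fold change and the gap between its groups. The nuclear genes named for respiratory chain subunits, whose proteins assemble with those made by the mitoribosome, had a median of -0.075, with 69 of 81 lower and 20 at an unadjusted p under 0.05. Those 20 were 24.7% of the 81, against 15.8% of all genes. All 20 were lower, a direction in which 8.58% of all genes had such a p. Of the 81 genes edgeR called 1 and DESeq2 2, against 1.24% and 3.94% of all genes. The one called by edgeR was Atp5d, of ATP synthase, with 113.3, 135.1, 124.0 and 134.0 CPM in controls 205, 237, 239 and 246, and a median of 107.7 CPM in the mutators (log2 fold change -0.24, adjusted p by edgeR 0.0462). In Cox5b, of cytochrome oxidase, the groups lay fully apart, with 126.1 to 129.8 CPM in the controls and 108.9 to 125.0 CPM in the mutators (log2 fold change -0.13, adjusted p by edgeR 0.141). The groups lay fully apart for 2.62% of all genes tested. Cytosolic ribosomal proteins had 0 of 78 called by edgeR or DESeq2, 2 with an unadjusted p under 0.05 and a median of -0.0082, with Rpl13 at -0.15 and Rps15a at 0.10. Whether these lists differ from the mitoribosomal genes was not tested.

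Mitoribosomal genes are short, and short genes as a whole were more often lower. The median exon length was 1700.5 bases for the members and 3385 for the tested genes with an annotated length. Among the 3438 genes of at most 1745 bases, the median log2 fold change was -0.026, and it was -0.054 over the 40 members among them. Among the 3437 genes of at least 5860 bases it was 0.025, and -0.015 over 6 members. The part of length in the members' values was not tested.

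Markers of cell types also differed between mice. Over all genes, 15.8% had an unadjusted p under 0.05 by edgeR, and edgeR called 1.24% and DESeq2 3.94%. Of 5 neuronal markers tested 0 were called by edgeR or DESeq2, and 2 had an unadjusted p under 0.05, 1 in each direction. Their sum was 5558.1, 5494.5, 5324.1 and 5668.4 CPM in controls 205, 237, 239 and 246, and 5179.6, 5421.65 and 5561.8 CPM as lowest, median and highest of the mutators. This is a ratio of means of 0.976, with 3 mutators under the lowest control and 0 above the highest, and control 246 was highest, as it was for the sum of the members. Of 5 endothelial markers edgeR called 1, Vwf (log2 fold change 1.27, adjusted p by edgeR 0.0472), and DESeq2 called 2. The 3 with an unadjusted p under 0.05 were all higher in the mutators and the other 2 lower. Their sum, led by Flt1, was 138.4, 153.4, 135.5 and 182.5 CPM in controls 205, 237, 239 and 246, and 171.0, 200.1 and 242.4 CPM as lowest, median and highest of the mutators. Of 5 microglial markers 0 were called by edgeR or DESeq2 and 3 had an unadjusted p under 0.05, and all 5 were lower in the mutators (median log2 fold change -0.17). Their sum, led by Csf1r, was 193.7, 223.1, 175.4 and 199.8 CPM in the controls, and 167.3, 177.3 and 192.2 CPM in the mutators. Of 5 oligodendrocyte markers edgeR called 0 and DESeq2 1, and 3 had an unadjusted p under 0.05, all lower. These were Mag, Mog and Cnp, with log2 fold changes of -0.31, -0.26 and -0.25, and the median of the list was -0.25. Mbp was higher (0.13, 95% interval -0.031 to 0.29), and it made up 62.1% of the sum of the 5. That sum was 4965.7, 5129.2, 4466.7 and 4968.4 CPM in the controls, and 4358.6, 4865.6 and 6118.8 CPM in the mutators, highest in mouse 217.

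Markers of blood differed most between mice. Of 3, edgeR and DESeq2 called 0 and 0 had an unadjusted p under 0.05 by edgeR (1 by DESeq2), and all 3 were higher in the mutators (median log2 fold change 0.64). Their sum, led by Hbb-b1, was 51.4, 80.9, 46.4 and 158.8 CPM in controls 205, 237, 239 and 246, and 69.3, 98.8 and 195.04 CPM as lowest, median and highest of the mutators. Control 246, the highest control for the sum of the members, was thus also the highest control for blood markers. Of 3 pericyte markers 0 were called by edgeR or DESeq2, 1 had an unadjusted p under 0.05 and all 3 were higher (median 0.13). Their sum, led by Rgs5, was 129.1, 133.1, 123.7 and 127.8 CPM in the controls, and 124.6, 142.6 and 152.5 CPM in the mutators. Of 2 markers of oligodendrocyte precursors 0 were called by edgeR or DESeq2, 1 had such a p and both were lower (median -0.11). Their sum, led by Pdgfra, was between 87.0 and 92.8 CPM in the controls, and 80.8, 83.5 and 93.2 CPM in the mutators, with 6 of the 7 under the lowest control. Astrocyte markers had 0 of 5 called by either tool, 1 with such a p, which was higher, and a median of -0.011, and those of choroid plexus 0 of 4, 1 with such a p, which was lower, and a median of -0.18. No marker of these lists was at 0 in each mouse, and Rbfox3 was not analysed here. The part of these cell types in the mitoribosomal levels was not tested.

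Several members share bases with other genes. The library kit used does not mark strand, so in shared bases the reads of genes cannot be told apart whether these lie on the same or on opposite strands, and the counts of these members are uncertain. In the mm9 annotation 26 of the 76 members (34.2%) share exon bases with another gene, 22 of them with a gene on the opposite strand and 6 with one on the same strand, against 26.7% of all tested genes with an annotation. More than 50% of exon bases are shared for Mrpl53 (87.1%), Mrps34 (77.8%) and Mrps25 (53.7%). Mrpl46 (chr7:85920122-85928417, minus strand) and Mrps11 (chr7:85928005-85937875, plus strand) overlap each other. These last 3 genes are named for their positions. Among the 50 members with no shared bases, 32 were lower, 0 were called by edgeR or DESeq2, 5 had an unadjusted p under 0.05 and the median log2 fold change was -0.036, against -0.037 over all 76.

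Use of exon bins, the pieces into which annotated exon ends divide each gene, was compared between the 7 mutators and the 3 WT/WT mice, for which bin counts were analysed. Bins were counted in groups, and 6 of the 76 groups that hold a member also hold another gene, whose bins are included here. Of the 947 bins of the 76 groups 715 were tested with edgeR's diffSpliceDGE and 0 were called, against 0.0237% of all bins. At an unadjusted p under 0.05 there were 11 such bins, 1.54% of those tested, against 1.9% of all bins. With limma's diffSplice 0 of the 715 were called and 19 had such a p, against 25 and 5576 of all 206930 bins. Without the groups of several genes, 603 bins were tested with edgeR, of which 0 were called and 6 had such a p. Of the 11 bins 4 were in Mrps24, among them the 2 with the lowest p. These 4 belong to a group that holds a second gene, and some of them lie side by side and can share reads.

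Mrps24 shares 15.4% of its exon bases with Urgcp, a gene on the same strand, and both were counted in 1 group of bins. Use is a share of that group's counts, so a lower level of Mrps24 by itself lowers the use of its bins and raises that of the Urgcp bins. Bins 10, 11 and 12, from 5607627 to 5607690 on chromosome 11 of mm9, make up the first exon of the protein-coding transcript of Mrps24, which holds the start codon. They are 19, 25 and 20 bases long, shorter than a sequenced read. A read can thus count in several of them, and they are not separate measurements. Bin 10 took 0.79%, 1.34% and 1.15% of the group's counts in WT/WT mice 205, 239 and 246, and 0.25%, 0.62% and 1.08% as lowest, median and highest of the mutators. This is a log2 change in use of -0.88, with an adjusted p over all bins of 0.194 by edgeR's diffSpliceDGE. WT/WT mouse 205 lay within the mutator range. Without control 205 edgeR called bins 10 and 11 (adjusted p 0.0111 and 0.0161), and without mutator 211, the highest of its group, it called bin 10 (adjusted p 0.018). Over all bins the calls were 49 of 206930 with all mice, 186 of 209437 without control 205 and 41 of 208532 without mutator 211. Bin 10 had between 16 and 71 counts per mouse. As a share of the counts in bins of Mrps24 alone, which Urgcp does not enter, the 3 bins together took 5.57%, 8.94% and 7.12% in WT/WT mice 205, 239 and 246, and 1.96%, 4.47% and 8.70% as lowest, median and highest of the mutators. A read that spans several of the 3 bins can enter this share more than once. Of the mutators, 6 lay under mouse 205, and mouse 211 lay within the WT/WT range. The bins were picked out after their values were seen, and this share was not tested.

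Bins that belong to 1 gene only give a level for Mrps24 and for Urgcp. Counts in bins of Mrps24 alone came to 0.383, 0.474 and 0.498 of those in bins of Urgcp alone in WT/WT mice 205, 239 and 246, and to 0.314, 0.364 and 0.404 of them as lowest, median and highest of the mutators. As CPM of all counts in bins, Urgcp had 58.9, 58.8 and 60.6 in the WT/WT mice and between 56.7 and 63.6 in the mutators, while Mrps24 had 22.6, 27.9 and 30.2 and between 17.8 and 23.4. The Urgcp values of the groups thus overlapped throughout, and those of Mrps24 overlapped through mouse 205.

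Promoters were searched for motifs of ETS factors, NRF-1 and YY1, known regulators of nuclear genes for mitochondria. RefSeq promoters of build GRCm38.p6, from 250 bases before to 50 after the start of a gene, were found for 67 of the 76 members. The letters CCGGAAG of an ETS-type motif, on either strand, were in 24 of the 67 (35.8%), against 9.93% of 27025 genes with a promoter and 16.5% of those tested here. An NRF-1-type motif, CGCATGCG, was in 7 (10.4%), against 2.07% of all and 3.68% of those tested. A YY1-type motif, AAGATGGC, was in 12 (17.9%), against 3.19% and 4.39%. ETS-type and YY1-type letters can share 3 bases where one follows the other. In all, 36 of the 67 members held at least 1 of the 3 motifs. Related genes held them as well. Of 59 cytosolic ribosomal genes with a promoter, 24 (40.7%) had the ETS-type, 3 (5.08%) the NRF-1-type and 5 (8.47%) the YY1-type motif, and of 65 nuclear respiratory chain genes 16 (24.6%), 9 (13.8%) and 9 (13.8%) had them. The ETS-type share was thus higher in cytosolic ribosomal genes than in the members, and the NRF-1-type share higher in respiratory chain genes. An E-box, CACGTG, was in 5 members (7.46%), against 8.09% of all genes and 11.0% of those tested, and a TATA box, TATAAA, was also in 5, against 15.7% and 9.57%. None of these differences in share was tested.

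The median log2 fold change of the members was -0.059 with the ETS-type motif and -0.016 without, -0.0069 with the NRF-1-type motif and -0.040 without, and -0.094 with the YY1-type motif and -0.020 without. These differences were not tested, and a match in letters describes the sequence and is not a bound site. The 120 bases before the start are shown for Mrps24 and Mrpl52, the members of lowest p with a RefSeq promoter whose stretch overlaps no RefSeq gene, with the 3 motifs in capitals. That of Mrps24 (chr11:5707702-5707821, minus strand) holds none of these letters, and that of Mrpl52 (chr14:54426789-54426908, plus strand) holds an ETS-type motif that ends 40 bases before the start.
Mrps24: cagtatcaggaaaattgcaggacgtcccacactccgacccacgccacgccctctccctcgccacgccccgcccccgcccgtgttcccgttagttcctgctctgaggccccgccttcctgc
Mrpl52: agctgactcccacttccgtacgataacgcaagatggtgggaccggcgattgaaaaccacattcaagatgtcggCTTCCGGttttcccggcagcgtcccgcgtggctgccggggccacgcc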

How the data were processed

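Per the submitters' processing notes and the study's methods, the authors aligned reads to mm9 with TopHat2 2.0.6 and Bowtie2 2.0.2.0 and counted them with HTSeq 0.5.3p9 on an Ensembl annotation. The deposited gene and exon-bin values are raw counts. The TruSeq RNA kit named in the methods does not mark strand, and the strand setting of the counting is not given in the sources used here. The authors' own fold changes and p-values were not used.

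Gene counts of 11 mice were filtered (filterByExpr), TMM-scaled and tested with edgeR 4.0.16 in R 4.3.3 (robust quasi-likelihood, Benjamini-Hochberg over all genes). Exon bins of 10 mice were tested with diffSpliceDGE. Alternatives used DESeq2 1.42.0, limma 3.58.1, sva 3.50.0, other scalings and filters, and each mouse left out. Scripts were tested on simulated data. Annotation was GENCODE on NCBIM37 (mm9), not the authors' release, so lengths and overlaps are approximate.

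Members and lists were chosen with earlier results of these data known. Synonyms of 5 list genes (Rbfa, Noa1, Mettl15, Ybey, Slirp) were corrected from RefSeq after values were seen, which took away the only call of the assembly list, a gene wrongly entered as Rbfa. Named members were the 8 large and 6 small subunit genes of lowest p, the 3 highest and 3 lowest per kb in each class, any called or not overlapping between groups, the Mrps18 paralogs, Mrps30 and Mrps36. Of other lists, called genes were named or, if there were none, the 2 of lowest p. Other list genes (Gabpb1, mt-Co2, Cox5b, Mag, Mog, Cnp) were named after their values were seen, and 1 marker gene is not reported here.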

Additional observations from a re-analysis of the deposited data

Results flagged for a closer look

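Among the control and mutator values of the named members and the sums per mouse, 66 groups were checked for 1 mouse far from the rest, and 5 (7.58%) had one. Chance gives about 1 in 20 groups. Control 246 was highest for 3 members: Mrpl42 had 33.5 CPM there against 27.5 to 28.3 CPM in the other controls, Mrps16 had 13.7 CPM against 12.5 to 12.6 CPM, and Mrps35 had 14.8 CPM against 12.4 to 12.8 CPM. Control 205 was lowest for Mrpl4, with 31.4 CPM against 35.6 to 35.9 CPM. Mutator 217 was highest for Mrpl52, with 12.2 CPM against 10.3 to 11.1 CPM in the other mutators. The causes were not tested.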

How the results depend on the processing

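The count of members called was 0 with edgeR and 1 with DESeq2 and with log2 library total as a covariate, in each case Mrps24, and ranged from 0 to 1 when a mouse was left out (1 without control 205). Exon bins called in the members' groups ranged from 0 to 2 when a mouse was left out, and over all bins from 5 (without control 239) to 186 (without control 205), against 49 with all mice. The fit against WT/WT controls is the same as that without control 237 and was counted once. Of 551 alternative log2 fold changes of the 29 named members, 539 kept their direction and side of the threshold, 3 passed it (Mrps24) and 9 changed sign. The sign changes were in 4 members near 0. Mrpl33 was -0.035 against WT/WT controls alone, -0.0074 with 1 surrogate variable and -0.035 to 0.055 with a mouse left out. With a mouse left out, Mrpl42 ran from -0.083 to 0.014, Mrps18c from -0.078 to 0.010 and Mrps35 from -0.075 to 0.021. The class medians then ran from -0.046 to -0.013 (large) and -0.069 to -0.035 (small). Without control 246 Mrpl11 was -0.018 (-0.078 with all mice), and 15 of the 29 moved by over 1.5 times, against 2 to 9 without any other mouse. Small shifts pass that limit in members near 0. Over all genes, edgeR called 223, DESeq2 622, edgeR without a filter 346, with log2 library total as a covariate 311, without control 205 412 and against WT/WT controls 50. With a mouse left out this count ran from 50 to 412. Leaving out genes of the mitochondrial chromosome, added after seeing the data, gave 0 member calls. The causes were not tested. The 4 controls limit the precision, and Mrpl53, with 8 to 36 counts per mouse, had the widest interval of the members.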
